A study of Mus musculus with 3 samples.

Results

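Plasmacytoid dendritic cells (pDC) were found among the thymic cells sorted as iNKT cells from transplanted mice. A cell was counted as a member when it held at least 2 UMIs (unique molecular identifiers, 1 per captured transcript) of Siglech, at least 1 of Tyrobp, and at least 1 of any of Klk1, Cox6a2, Pld4 and Ly6d. The members were thus chosen by the UMIs of these 6 genes, whose presence in them is no finding. There were 570 members among the 11527 kept cells of the 2 transplant libraries, 172 of 5970 in BM only and 398 of 5557 in BM + Spl. The untransplanted C57BL/6 library held 1 such cell among 4434 and entered no comparison.

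The study followed thymic iNKT cell reconstitution after haploidentical bone marrow transplantation with and without chronic graft-versus-host disease (GvHD). Recipients in both transplant groups were F1 mice of C57BL/6 x BALB/c, 16 weeks old by the labels, and after lethal irradiation all received C57BL/6 marrow depleted of T cells. BM + Spl mice were also given C57BL/6 splenic cells and are labelled GVHD, BM only mice were not and are labelled Non-GVHD, and thymi of both were taken 9 weeks after transplantation. Thymocytes depleted of CD8+ cells on beads were sorted for NK1.1- CD24- TCRβ+ cells binding the CD1d tetramer, and several mice were pooled into 1 library per group. No mutant allele or transgene was used in either group. With 1 library per group no comparison below has a replicate check, the groups cannot be told apart from their libraries, and no test was made. The intervals given are 95% intervals of counting error only, exact Poisson or binomial for single values, exact conditional binomial for ratios of levels and Katz log intervals for ratios of shares.

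Plasmacytoid dendritic cells are innate cells of marrow origin known for releasing type I interferon when Tlr7 or Tlr9 meets nucleic acid in the endosome. Their fate is set by the E protein Tcf4 with Irf8, Runx2, Spib and Bcl11a, and mouse pDC carry Siglech, a sialic acid-binding receptor that signals through the adaptor Tyrobp. They share early lymphoid features such as Dntt and Ptcra, can carry CD8α, CD4 and Ly6C, and are one of the dendritic cell types of the thymus, where Ccr9 draws them. They make no αβ T cell receptor.

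The promoters of 3 genes that chose the members are shown, from RefSeq, because their transcripts define the cells. Each runs from 250 bases before to 50 bases after the annotated start, on the plus strand of GRCm38.p6, at chr7:55767934-55768233 for Siglech, chr7:44225110-44225409 for Klk1 and chr12:112760405-112760704 for Pld4. Capitals mark matches, on either strand, to the E-box letters CACCTG and to CAGCTG, which E proteins such as Tcf4 can bind, and to GAGGAA, a core bound by ETS factors such as Spib. A match on the minus strand shows as the reverse complement, as in Klk1 for CACCTG and in Siglech for GAGGAA.
Siglech: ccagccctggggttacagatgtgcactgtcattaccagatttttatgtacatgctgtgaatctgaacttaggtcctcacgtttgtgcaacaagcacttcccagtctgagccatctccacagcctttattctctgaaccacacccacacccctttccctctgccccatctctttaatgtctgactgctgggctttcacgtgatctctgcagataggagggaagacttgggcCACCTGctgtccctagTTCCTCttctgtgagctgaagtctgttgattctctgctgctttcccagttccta
Klk1: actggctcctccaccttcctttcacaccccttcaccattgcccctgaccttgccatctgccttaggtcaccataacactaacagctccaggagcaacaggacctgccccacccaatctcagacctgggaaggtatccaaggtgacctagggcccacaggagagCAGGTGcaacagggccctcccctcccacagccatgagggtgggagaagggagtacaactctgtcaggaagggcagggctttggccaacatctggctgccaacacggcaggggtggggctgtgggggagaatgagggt
Pld4: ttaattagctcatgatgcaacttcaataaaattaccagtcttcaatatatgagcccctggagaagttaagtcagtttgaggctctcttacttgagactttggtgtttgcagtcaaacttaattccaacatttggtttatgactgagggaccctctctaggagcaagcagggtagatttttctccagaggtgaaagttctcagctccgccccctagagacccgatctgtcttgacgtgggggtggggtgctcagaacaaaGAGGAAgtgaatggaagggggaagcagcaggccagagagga
Siglech held 1 CACCTG and 1 GAGGAA match, Klk1 held 1 CACCTG match, and Pld4 held 1 GAGGAA match, with no overlap between motifs and no CAGCTG in these windows. Among 32851 mouse promoters of the same length, 20.2% held CACCTG, 16.3% CAGCTG and 28.3% GAGGAA, so these matches are common and describe the letters only.

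The members carried the transcripts of pDC beyond the genes that chose them. Levels are UMIs per 1000000 (CPM) of the summed UMIs of the members, given for BM only and then BM + Spl. Tcf4 stood at 874 and 728 CPM, Irf8 at 2386 and 2099 CPM, Runx2 at 445 and 396 CPM, and Bcl11a, a repressor needed for pDC development, at 274 and 200 CPM. The same transcripts were low in cells holding at least 2 UMIs of Cd3d, Cd3e and Cd3g together with neither Siglech nor Cd79a, called T-cell reference below. Tcf4, for instance, had a UMI in 97.7% of the BM only members and in 1.73% of the BM only T-cell reference. Deep members weigh most in these sums. Members with 10 or more Cd3 UMIs, described below, held 210727 of 1251772 UMIs in BM only and 1209071 of 3433836 in BM + Spl. The log2 ratio of BM + Spl over BM only was −0.26 for Tcf4 and −0.18 for Irf8 in all members. In members without Cd3 UMIs it was 0.01 and 0.03.

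Among surface molecules, Bst2, the pDC antigen tetherin, was at 3526 and 4024 CPM, Ccr9, the receptor for the thymic chemokine CCL25, at 499 and 504 CPM, and Lair1, an inhibitory collagen receptor, at 565 and 572 CPM. The Ly6C gene Ly6c2 was at 3681 and 2900 CPM. Although the thymocytes had been depleted of CD8+ cells, Cd8a was read at 292 and 217 CPM and Cd8b1 at 363 and 606 CPM, above the T-cell reference at 28.9 and 61.8 CPM for Cd8a. Dntt, the terminal transferase of lymphoid progenitors, was at 63.9 and 82.1 CPM and Ptcra, the pre-TCRα chain, at 6.39 and 12.8 CPM.

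For nucleic acid sensing, the members held Tlr7 at 68.7 and 83.6 CPM, Tlr9 at 51.1 and 36.7 CPM, their chaperone Unc93b1 at 768 and 758 CPM, and Irf7, the factor that amplifies interferon transcription, at 479 and 439 CPM. Antigen presentation genes were read too, with Cd74 (the invariant chain) at 9127 and 9466 CPM and the class II gene H2-Aa at 1700 and 2149 CPM. Of the costimulation genes, Cd80 stood at 0.799 and 3.20 CPM and Cd86 at 3.99 and 6.12 CPM, both near the floor. The 16 genes of the costimulation and CD1d list summed to 169 and 181 CPM, with Slamf6 the most abundant. Cd1d1, which presents lipids to iNKT cells, was at 13.6 and 10.5 CPM.

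No type I or III interferon transcript was counted in any member. Over 20 type I and III interferon genes, 0 UMIs were found in the members of both libraries, which allows up to 2.40 CPM in BM only and 0.874 CPM in BM + Spl (3 counts of each total). The one kept cell with many interferon UMIs, in BM only, lay just outside the rule. It held 34 UMIs of Ifna4, 4 of Ifnb1, 2 of Ifna1 and 2 of Ifna5 among 8305, with 3 of Siglech, 42 of Tyrobp, 20 of Irf8 and 4 of Tcf4, but none of Klk1, Cox6a2, Pld4 or Ly6d. It held no Cd3 UMI.

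**Figure D1:**
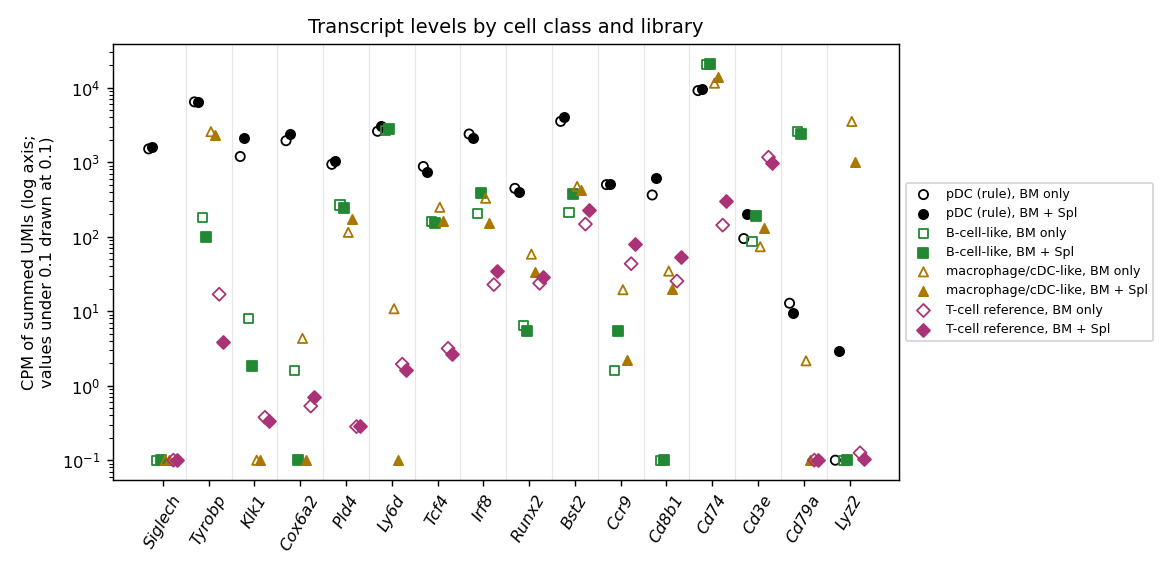
Levels of 16 transcripts in 4 cell classes of each transplant library, as CPM of summed UMIs on a log axis with values under 0.1 drawn at 0.1; open symbols are BM only and filled symbols BM + Spl. Tcf4, Irf8, Runx2, Bst2 and Ccr9, which did not choose the members, lie higher in pDC than in the other 3 classes of both libraries, while Ly6d is about as high in B-cell-like cells.

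Several markers of macrophages and B cells were at or near 0, while others were read. Of 10 macrophage markers, summing to 497 and 563 CPM, Cd68 held most of the UMIs (397 and 407 CPM) and Apoe was at 95.1 and 145 CPM, while Lyz2 was at 0 and 2.91 CPM and Csf1r at 3.20 and 0 CPM. The 14 B cell markers summed to 520 and 726 CPM, led by Ighm at 345 and 425 CPM. Cd79b, at 72.7 and 58.8 CPM, was next in BM only, while Iglc2, described below, was next in BM + Spl. Cd79a was at 12.8 and 9.32 CPM, and Vpreb3 and Cr2 were at 0 in both. Xcr1, the receptor of cross-presenting dendritic cells, was at 0 in both, while Cd209a, a lectin of type 2 dendritic cells, was at 672 and 325 CPM. Cells with at least 2 Cd79a UMIs, a second B cell gene and no Siglech (B-cell-like), and cells with at least 3 UMIs over 12 myeloid genes, Tyrobp and no Siglech (macrophage/cDC-like), served for comparison.

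The 15 genes with the highest fold over all other kept cells, taking the lower of the 2 libraries, also described the members without a test, since the rule used some of them. Cox6a2, a cytochrome c oxidase subunit known from striated muscle (chr7:128205435-128206387, mm10), led with 1211-fold, ahead of Siglech (chr7:55768178-55778925) with 1088-fold. Foxr1, a forkhead factor, followed with 869-fold, and Klk1, a tissue kallikrein (chr7:44225360-44229618), with 819-fold. Sh3bgr stood at 584-fold, D13Ertd608e at 494-fold, and Atp2a1, the calcium pump of fast muscle, at 475-fold. The other leading genes were Cd300c, Gm829, Olfr164, Robo3, Cdh5, Gm21762, Smim5 and Serpinh1, at 314-fold to 442-fold. The broadly expressed partner isoform Cox6a1 was read in the members at 320 and 321 CPM.

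Members at the limit of the rule were mostly of the group led by Ngfr, Cdkn1a and Cd209e, described below as group 6. In BM only 9 members held exactly 2 Siglech UMIs and 16 cells that met the other criteria held 1, and in BM + Spl these were 8 and 11 cells. Of the 17 members at 2 UMIs, 11 were in group 6, 7 of 9 in BM only and 4 of 8 in BM + Spl. Bst2 stood at 1800 CPM in the BM only members at 2 UMIs, at 1083 CPM in the cells at 1 UMI and at 3617 CPM in the members above 2, and in BM + Spl at 2716, 1838 and 4046 CPM. Of the kept cells with at least 2 Siglech UMIs, 178 in BM only and 407 in BM + Spl, 4 and 9 lacked Tyrobp, and 2 and 0 lacked the 4 alternative genes.

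BM + Spl held the larger share of pDC. Members were 2.88% (2.47 to 3.34) of kept cells in BM only and 7.16% (6.50 to 7.87) in BM + Spl, a ratio of 2.49 (2.09 to 2.96). B-cell-like cells went from 1.36% to 1.08%, a ratio of 0.796 (0.571 to 1.11), and macrophage/cDC-like cells from 0.821% to 0.756%, a ratio of 0.921 (0.611 to 1.39), both intervals holding 1. Kept cells were deeper in BM + Spl (median 6495 UMIs against 4740). With every cell thinned to 2000 UMIs the pDC shares were 2.43% in BM only and 5.77% in BM + Spl. The sort for TCRβ+ tetramer+ cells can set all of these shares, and they are not shares of the thymus.

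T cell transcripts lay in a minority of the members. Cd3d, Cd3e and Cd3g, the chains that carry the T cell receptor signal, had no UMI in 143 of 172 BM only members (83.1%) and in 295 of 398 BM + Spl members (74.1%). At the other end, 16 BM only members (9.30%) and 72 BM + Spl members (18.1%) held 10 or more Cd3 UMIs, up to 65 and 113 in a single cell. Members with 10 or more were deeper, with medians of 11795 and 14423 UMIs against 6123 and 6543 in members without Cd3. Their median Siglech UMIs were 11.5 and 14, against 11 and 13.

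**Figure D2:**
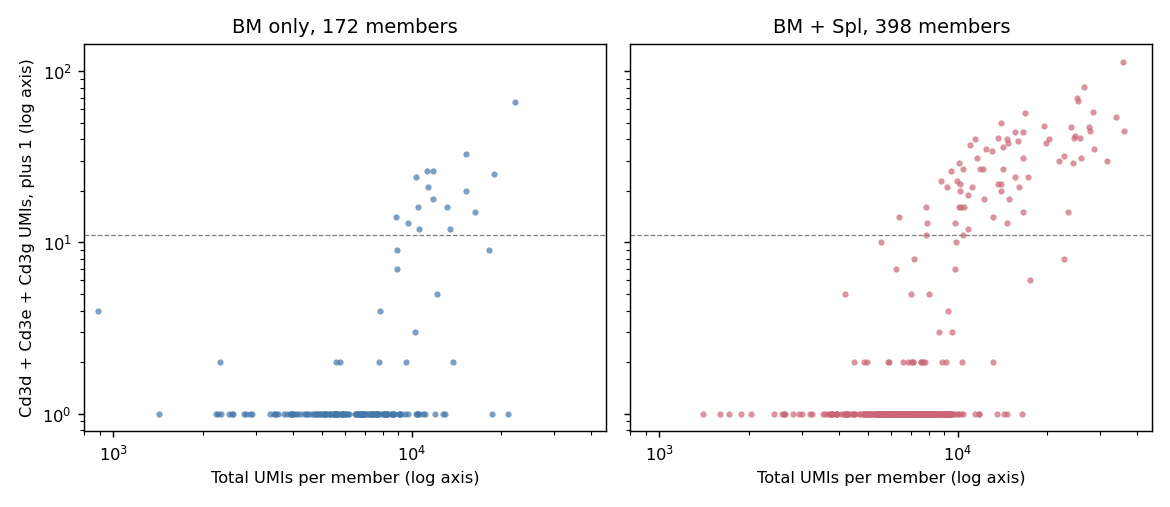
Each point is 1 member, with its total UMIs on the x axis and its Cd3d, Cd3e and Cd3g UMIs plus 1 on the y axis, both log axes, and the dashed line at 10 Cd3 UMIs. Most members lie at 0 Cd3 UMIs, and the 16 and 72 members at or above the line lie toward high total UMIs.

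Summed over 20 T cell genes, T cell transcripts made up 0.0911% (0.0859 to 0.0965) of the UMIs of all BM only members and 0.1803% (0.176 to 0.185) of those of BM + Spl, with Cd3g the most abundant at 123 and 249 CPM. In the members without Cd3 the share was 0.0112% and 0.0116%, with Bcl11b and Trat1 at 0 in both libraries. In the members with 10 or more Cd3 UMIs it was 0.429% and 0.469%, against 0.951% and 0.935% in the T-cell reference. The 20 genes include Cd3d, Cd3e and Cd3g, which cut these sets and define the T-cell reference. The order of these shares thus follows in part from the selection. The share of cells with a Cd3 UMI, thinned to 2000 UMIs, was 12.9% and 21.8% for pDC, 9.88% and 26.3% for B-cell-like cells and 10.4% and 15% for macrophage/cDC-like cells, classes that should lack Cd3. Unthinned, the shares were 16.9% and 25.9%, 16.0% and 28.3%, and 16.3% and 16.7%, at different depths. In BM + Spl the pDC share lay below that of the B-cell-like cells. No doublet caller was run, and what part doublets had in the Cd3 UMIs was not tested.

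The T cell transcripts of these members differed in makeup from those of the T-cell reference in BM + Spl. Per 1000 Cd3 UMIs, Foxp3, the regulatory T cell factor, was at 61.3 in the members with 10 or more Cd3 UMIs and at 19.2 in the T-cell reference, a ratio of 3.19 (2.67 to 3.78), and was read in 38 of 72 members. Il2ra, the IL-2 receptor α chain, had a ratio of 5.31, Klrg1, a receptor of effector cells, 5.54, Tnfrsf4 (OX40) 3.23 and Ctla4 2.64. Genes of other T cell states were also above the reference, with ratios of 2.75 for the chemokine gene Ccl5, 2.08 for Nkg7 of cytotoxic granules, 2.85 for Mki67 and 1.31 for Gata3, and Izumo1r, a folate receptor of regulatory T cells, was below it at 0.783. Zbtb16, encoding PLZF, the iNKT cell factor, was lower at 21.2 against 52.9, a ratio of 0.400 (0.295 to 0.531). Of the receptor chain genes, Trac had a ratio of 1.04 (0.854 to 1.25), Trbc1 1.11 and Trbc2 0.726 (0.658 to 0.799). These genes were chosen after values were seen, and pDC transcripts of the same cells can add to a gene that pDC express.

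In BM only the same ratios were 1.46 (0.630 to 2.89) for Foxp3, read in 4 of 16 members, 3.499 for Il2ra, 3.0 for Tnfrsf4, 2.09 for Ctla4, 0.804 (0.597 to 1.06) for Ccl5, 0.618 for Nkg7 and 0.624 (0.285 to 1.19) for Zbtb16. Few cells carried some of these genes. Of the 21 Il2ra UMIs 12 lay in 1 member, and the 50 Ccl5 UMIs lay in 3 members, 25 of them in 1. Klrg1, with 1 UMI, had a ratio of 0.458 (0.0116 to 2.56), below 1 where BM + Spl had 5.54. Trac stood at 0.942 and Trbc2 at 1.03. Among members with 10 or more Cd3 UMIs that could be given a single T cell receptor Vβ segment, 10 of 13 in BM only (76.9%, 46.2 to 94.96) and 20 of 48 in BM + Spl (41.7%, 27.6 to 56.8) carried a segment typical of iNKT cells. In the T-cell reference these shares were 80.9% and 62.7% (61.2 to 64.2). No member without Cd3 could be given a segment.

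The members fell into 6 groups by their own most variable transcripts, which are described by their leading genes. Groups 1, 4 and 5 held Siglech at 2184, 2094 and 2232 CPM and Cox6a2 at 3094, 3817 and 4019 CPM. Group 1, with 50 BM only and 96 BM + Spl members, was led by Col6a6, Gm29282, Cacna1e and Zbtb10 after Igkv6-15, whose UMIs lay almost all in 1 cell. Group 4, with 17 and 65 members, was led by Gm36738, Pgam2, Gm39091 and Grhpr after Igkv1-135, again from 1 cell. Group 5, with 18 and 63 members, was led by Siglecg, Mtss1, Hs3st1, Gas7 and Blcap.

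Group 2, with 35 and 83 members, was led by Il11ra1, Calm4 and the interferon-inducible genes Ifi207, Iigp1 and Usp18. It held Ly6c2 at 6489 CPM, Ly6a (Sca-1) at 3164 CPM and Ly6d at 5184 CPM. Isg15, an interferon-inducible ubiquitin-like modifier, was at 199 CPM (171 to 231), where groups 1, 4 and 5 had it at 12.8, 20.05 and 12.4 CPM. Neither Isg15 nor Ly6c2 was particular to group 2. Isg15 was at 125 CPM in group 3 and 166 CPM (127 to 214) in group 6, and Ly6c2 was at 5616 CPM in group 6. Its share of the members was 20.3% in BM only and 20.9% in BM + Spl, and this depended on the resolution. At resolution 1 a group led by Iigp1, Usp18 and Ifi207 held 8.72% and 17.3% of the members, a ratio of 1.99 (1.17 to 3.37), and one led by Il11ra1 and Cd24a held 11.6% and 5.03%, a ratio of 0.432 (0.239 to 0.782).

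Group 3, with 22 and 82 members, was led by Penk, Ccl5, Nkg7, Gzmc and Tnfrsf4, genes of activated lymphocytes, although all 379 Gzmc UMIs lay in 1 member that had no Cd3 UMI. Of its 104 members 102 had a Cd3 UMI, the median Cd3 count was 22, and the median depth was 13305 UMIs. Mki67, a proliferation marker, was read in it at 65.5 CPM and at 0 in each of the other 5 groups. It made up 12.8% (8.19 to 18.7) of the BM only members and 20.6% (16.7 to 24.9) of the BM + Spl members, a ratio of 1.61 (1.04 to 2.49).

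Group 6 had the largest fold difference in share between libraries of the 6 groups. It was led by Ngfr, the low-affinity neurotrophin receptor, Cdkn1a, a cell cycle inhibitor, the lectin gene Cd209e, Rab3il1 and Pi16. It held 30 of the BM only members (17.4%, 12.1 to 24.0) and 9 of the BM + Spl members (2.26%, 1.04 to 4.25), a share 7.71-fold lower (3.74 to 15.9) in BM + Spl. The same 39 members formed 1 group at resolutions 0.3 and 1, and 4 of them had a Cd3 UMI. The Siglech limit cuts into this group, so its true size is not known and its low Siglech depends on where the limit lies. Among members above 2 Siglech UMIs it held 23 of 163 in BM only (14.1%, 9.16 to 20.4) and 5 of 390 in BM + Spl (1.28%, 0.418 to 2.97). Since its leading genes were also among the genes that differed between libraries, the grouping was repeated without the 282 called genes defined below. The matching group then held 63 members, 38 of the 39 among them, at 25% (18.7 to 32.2) of BM only and 5.03% (3.096 to 7.65) of BM + Spl members, 4.98-fold lower (3.02 to 8.20).

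The regulators of pDC were not all alike in group 6. Tcf4 was at 974 CPM, Irf8 at 2536 CPM and Bcl11a at 332 CPM, against 948, 2753 and 266 CPM in the members of groups 1, 2, 4 and 5 together. Runx2 was lower, at 388 against 504 CPM, and Spib, at 49.8 against 178 CPM, was 3.57-fold lower. Among pDC surface genes that did not choose the members, Bst2 was at 2115 against 4985 CPM and Ccr9 at 219 against 644 CPM. Ly6c2 was higher in group 6, at 5616 against 3684 CPM. Cd8a was also higher, at 531 against 259 CPM, though at 356 against 333 CPM within BM only. Cd8b1 was lower, at 163 against 693 CPM. The rule itself used the next 3 genes, so their values in group 6 are a description only. Siglech was at 509 against 2091 CPM, Klk1 at 47.1 against 2409 CPM and Cox6a2 at 58.1 against 3117 CPM. H2-Aa, not in the rule, was at 507 against 2647 CPM. Dntt had no UMI in it, against 103 CPM.

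Other transcripts ran the opposite way in group 6. Cd209a was at 1558 against 398 CPM, Cd209e at 365 against 5.45 CPM, Klf4, a factor of myeloid and type 2 dendritic cells, at 523 against 140 CPM, and Zbtb46, a factor of conventional dendritic cells, at 77.5 against 1.09 CPM. Vim, encoding vimentin, was at 4991 against 504 CPM, and Il4i1, a secreted amino acid oxidase, at 686 against 6.18 CPM. Xcr1 was at 0. These values pool both libraries, and group 6 came mostly from BM only. Within BM only Klf4 was at 607 against 202 CPM and within BM + Spl at 241 against 118 CPM. Spib was at 43.1 against 203 CPM and at 72.4 against 169 CPM, H2-Aa at 384 against 2375 CPM and at 917 against 2741 CPM, and Vim at 5220 against 661 CPM and at 4221 against 450 CPM, in the same direction in each library. Klf4, Vim and Cd209a have been used to mark transitional dendritic cells, which share features of pDC and conventional dendritic cells, and the group was given no name from them.

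**Figure D3:**
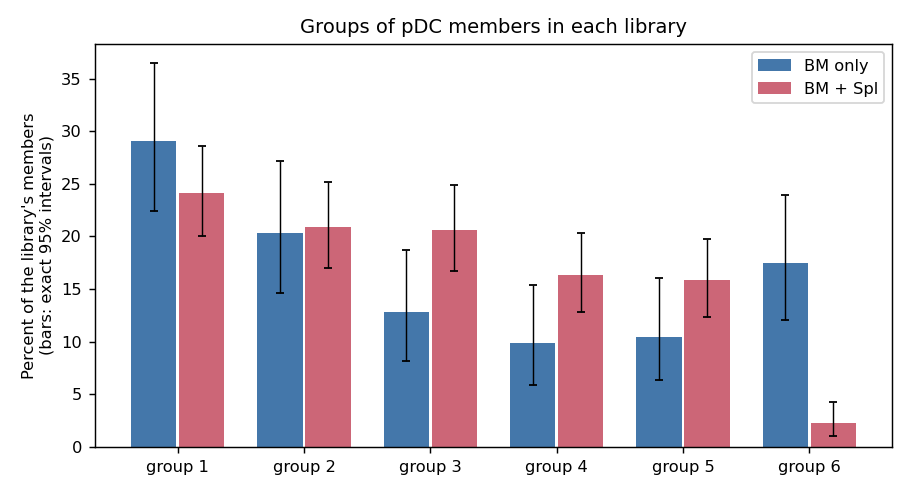
Percent of each library's members in the 6 groups, bars starting at 0 with exact 95% binomial intervals; blue is BM only (172 members) and red BM + Spl (398 members). Group 6 is at 17.4% in BM only and 2.26% in BM + Spl, and group 3 at 12.8% and 20.6%; the intervals of single shares overlap for groups 1 to 5.

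**Figure D4:**
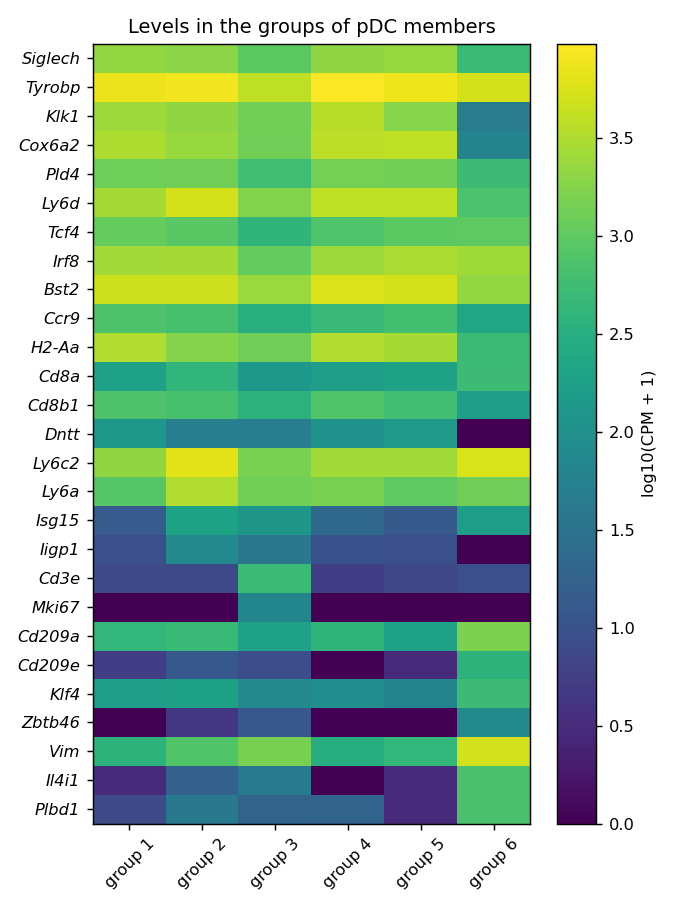
Levels of 27 transcripts in the 6 groups, as log10 of CPM plus 1, with both libraries summed. Group 6 has the lowest Siglech, Klk1 and Cox6a2 and the highest Cd209a, Klf4 and Vim, and Cd3e and Mki67 are highest in group 3.

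Between BM + Spl and BM only, the called genes included T cell and cell cycle genes, higher in all members, and leading genes of group 6 such as Cd209e and Pi16 and 3 stress genes, lower in both sets of members. A gene was called when its CPM ratio passed 2-fold and the counting interval did not hold 1, among genes with at least 50 UMIs over both libraries. In all members 176 of 7714 genes were called higher in BM + Spl (2.28%) and 106 lower (1.37%), with a median log2 ratio of −0.05 over the genes tested. In the members without Cd3, 59 of 6146 were called higher (0.960%) and 77 lower (1.25%), again with a median of −0.05. Of the calls, 25 higher and 45 lower were shared by both sets.

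The 6 genes that chose the members are given as a description only, since the rule used their UMIs. They had a median log2 ratio of 0.38 in members without Cd3, and Klk1 alone of them passed 2-fold, at 1267 CPM in BM only and 2618 CPM in BM + Spl, log2 1.05 (0.96 to 1.14). In all members Klk1 did not pass 2-fold, at 1190 and 2110 CPM, log2 0.83 (0.74 to 0.91). Klk1 had a UMI in 64.5% of the BM only and 89.4% of the BM + Spl members. Without groups 3 and 6, which left 120 and 307 members, Klk1 stood at a log2 ratio of 0.69, Siglech at 0.01, Cox6a2 at 0.10, Tcf4 at 0.01 and Irf8 at 0.03.

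Beyond the genes of the rule, the lists of pDC genes held no call in members without Cd3, where 0.960% of all genes were called higher and 1.25% lower, so that lists of this size would hold few at that share. Of 9 regulators tested in members without Cd3 none was called, with a median of −0.05, and likewise none of 19 surface genes (median 0.12), of 20 other pDC genes (0.29), of 14 nucleic acid sensing genes (−0.07), of 9 class II genes (0.26) and of 20 genes of the endoplasmic reticulum and secretion (0.09). In all members Cbfa2t3, a corepressor, was called lower at 177 and 80.1 CPM, log2 −1.15, as was Flt3, the receptor of the dendritic cell growth factor, at 155 and 68.4 CPM, log2 −1.18. The T cell genes of these lists, Bcl11b at 8.79 and 22.7 CPM and Cd2 at 46.3 and 158 CPM, were called higher in all members, at log2 1.37 and 1.77, and not in members without Cd3. Cd8b1, with 363 and 606 CPM in all members, had a log2 ratio of 0.74 (0.59 to 0.89), whereas its partner Cd8a had −0.43 (−0.61 to −0.24). Ly6a stood at 1037 and 1758 CPM in all members, log2 0.76. None of the last 3 passed 2-fold.

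Of the 20 T cell genes, 11 of 19 tested in all members were called higher and none lower, against 2.28% of all genes called higher, with a median of 1.07. Of the 3 that could be tested in members without Cd3, cells chosen for lacking Cd3 UMIs, none was called. In the cell cycle list 5 of 10 genes were called higher in all members against the same 2.28% (median 1.27) and none of 3 without Cd3 (−0.07). Of 12 interferon-stimulated genes tested in all members, Rtp4 and Zbp1, a nucleic acid sensor, were called higher, at log2 1.67 and 1.71. Without Cd3 Oasl2 was called, at log2 1.21, as 1 of 8 where 0.960% of all genes were called higher, with a list median of 0.09. Without groups 3 and 6 the ratio of Oasl2 was 1.82 (0.843 to 4.48) on 8 and 42 UMIs, and the call was lost.

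Of the 10 genes listed as marking transitional dendritic cells, 6 could be tested. In members without Cd3, 4 of these were called lower in BM + Spl and none higher, with a median of −1.19, where 1.25% of all genes were called lower. In all members 3 of 6 were called lower, against 1.37% of all genes. In members without Cd3 Klf4 was at 306 and 123 CPM, log2 −1.32 (−1.57 to −1.07), Vim at 1905 and 606 CPM, log2 −1.65 (−1.76 to −1.55), S100a4, a calcium-binding protein, at 108 and 25.9 CPM, log2 −2.05, and Crip1, a LIM-domain protein, at log2 −1.05. Over all members S100a4 stood at log2 0.06. Without groups 3 and 6 the log2 ratios were −0.77 for Klf4 and −0.56 for Vim, −0.09 for Crip1 (ratio 0.938, 0.851 to 1.04) and −0.53 for S100a4 on 8 and 16 UMIs (ratio 0.692, 0.280 to 1.87), and none of the 4 was past 2-fold.

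The single genes with the lowest ratios included several leading genes of group 6. In members without Cd3, Cd209e was at 108 CPM in BM only and 11.7 CPM in BM + Spl, log2 −3.20 (−3.92 to −2.54), and Il4i1 at 188 and 29.5 CPM, log2 −2.68. Plbd1, a phospholipase B-like protein, was at 214 and 39.2 CPM, log2 −2.45, Aqp3, a water and glycerol channel, at 59.2 and 2.54 CPM, log2 −4.54, and Pi16 at 43.1 and 6.10 CPM, log2 −2.82. Fabp5, a fatty acid-binding protein, stood at log2 −2.40, but in all members at −0.97 and not called, and without groups 3 and 6 at −0.76 with a ratio interval of 0.314 to 1.15. In members without Cd3 Pros1, protein S, was at log2 −2.21. In all members Ngfr was at 34.4 and 2.91 CPM, log2 −3.56. Igkv1-135, the lowest of all, had all 55 of its UMIs in 1 BM only member, and all 55 remained without groups 3 and 6. Of the UMIs of Cd209e, Il4i1, Pi16 and Ngfr, few were left without these 2 groups. There the call of Plbd1 was lost (log2 −0.78, ratio interval 0.321 to 1.09), and Cd209e (−0.95, 0.165 to 1.77), Pi16 (−0.79, 0.112 to 3.71), Pros1 (0.79, 0.490 to 9.33) and Il4i1 (−2.41, 0.0573 to 0.557) had too few UMIs to be called. Aqp3 had none.

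Of 10 genes of dissociation stress tested in members without Cd3, Hspa1a, Hspa1b and Ier2 were called lower in BM + Spl and none higher, against 1.25% of all genes called lower, with a median of −0.69. The same 3 of 11 were called in all members. Hspa1b, an inducible Hsp70, was at 102 and 7.86 CPM in all members, log2 −3.70 (−4.36 to −3.09), and at 250 and 25.5 CPM in the T-cell reference, log2 −3.30. Hspa1a was at log2 −2.62 in all members and −3.81 in the T-cell reference, and Ier2 at −1.31 and −0.75. Fos was at 1673 and 972 CPM in all members, log2 −0.78 and not called, and at log2 −1.41 in the T-cell reference. What handling of the libraries contributed was not tested.

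The class I genes had a higher median log2 ratio between BM + Spl and BM only than all genes tested, with few past 2-fold. This list of 14 genes was added after values were seen. In members without Cd3, 3 were called higher (median 0.49), where 0.960% of all genes were. In all members 2 were called higher (median 0.52), where 2.28% were. The median over all genes tested was −0.05 in both sets. H2-K1, a classical class I heavy chain, was at 1433 and 2371 CPM in all members, log2 0.73 (0.65 to 0.80), while in the T-cell reference it was at 1807 and 1747 CPM, log2 −0.05. H2-Q7 was at 112 and 251 CPM, log2 1.17 (0.91 to 1.44), and at 112 and 173 CPM in the T-cell reference, log2 0.62. B-cell-like cells had H2-K1 at 1949 and 2821 CPM. The class I genes are near copies of each other, donor and recipient alleles differ, and the counts of each are uncertain for that reason.

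Of 3 B cell genes that could be tested, Iglc2 was called higher in BM + Spl, and Ighm and Cd79b were not called, in all members and in members without Cd3, where 2.28% and 0.960% of all genes were called higher. Iglc2, an immunoglobulin λ constant segment, was at 70.3 and 212 CPM in all members, log2 1.59 (1.27 to 1.93), and at log2 1.61 in members without Cd3. Mzb1, a chaperone of antibody-secreting cells and pDC, was at 272 and 480 CPM, log2 0.82 (0.65 to 0.99), and did not pass 2-fold. Without groups 3 and 6 Iglc2 stood at log2 1.19 and Mzb1 at 0.59, and Cd79b at −0.25.

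**Figure D5:**
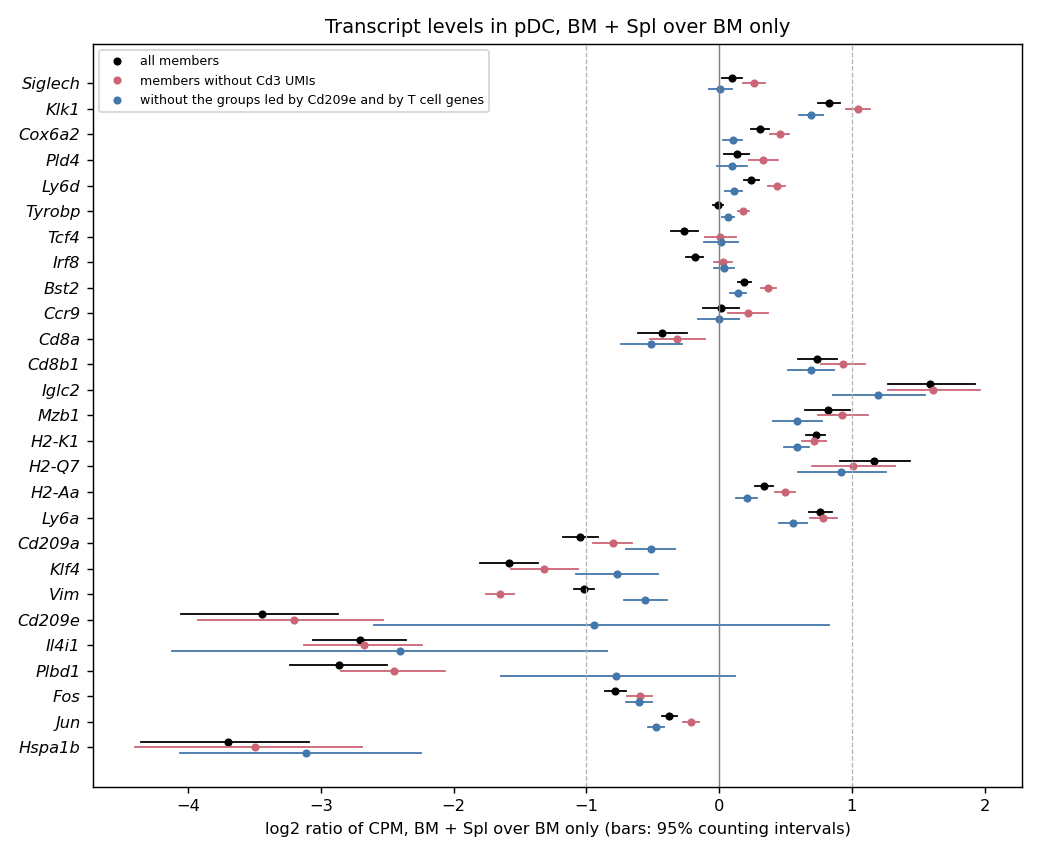
log2 ratio of CPM, BM + Spl over BM only, for 27 transcripts in all members (black), in members without Cd3 UMIs (red) and without groups 3 and 6 (blue), with 95% counting intervals and dashed lines at 2-fold either way. Klk1, Cd8b1, Iglc2, Mzb1, H2-K1 and H2-Q7 lie right of 0 in all 3 sets, and Cd209a, Klf4, Vim, Fos, Jun and Hspa1b lie left of 0.

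Among the genes with the highest ratios, 3 came almost wholly from 1 cell each. All 379 UMIs of Gzmc, a granzyme, lay in 1 BM + Spl member, as did 106 of the 108 of Igkv6-15 and 77 of the 79 of Igkv2-109. Ifitm1, Trbv5 and Trbv3, Gimap7 and Klrg1 were read in BM + Spl at 16.0 to 43.1 CPM. They are genes of T cells or interferon response. Hells, a chromatin remodeller of dividing cells, was at 2.40 and 33.5 CPM. In members without Cd3, Hells had 1 and 5 UMIs, too few to be called, at log2 1.24 (−1.92 to 6.80). Trbv5, Trbv3, Gimap7 and Klrg1 had no UMI there in either library, and Ifitm1 had 0 and 11.

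Def8, a gene linked to lysosome positioning, was called in all 3 sets of members. It was at 7.99 and 84.2 CPM in all members, log2 3.40, at 9.69 and 66.1 CPM in members without Cd3, log2 2.77 (1.80 to 3.93), and at log2 3.07 without groups 3 and 6. Of its 289 UMIs in BM + Spl, 58 lay in 1 member. It was also called higher in the T-cell reference, at 12.2 and 28.4 CPM, log2 1.22, and stood at 24.1 and 45.4 CPM in B-cell-like and 4.31 and 31.3 CPM in macrophage/cDC-like cells. Next among members without Cd3 were Iigp1, an interferon-inducible GTPase, at log2 2.09, Serpinb6b at 1.92, Gab3 at 1.79, Klhl18 at 1.77, Tigit, an inhibitory receptor, at 1.70 and Ly6k at 1.68. Xcl1, the ligand of Xcr1, had 82 of its 83 UMIs in 1 of these cells.

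The remaining lists were small, and at the shares of 0.960% and 1.25% over all genes their counts of 0 in members without Cd3 say nothing about them. None was called of 6 conventional dendritic cell genes (median −0.56), 8 homing genes (0.04), 4 survival genes (−0.17), 4 tissue isoforms of cytochrome c oxidase (0.06), 2 costimulation genes (0.16), 2 macrophage genes (0.47) and 2 genes of other lineages (0.13), and no gene of the 10 iNKT cell genes could be tested. In all members Ccr7, the lymph node homing receptor, was called higher at 17.6 and 42.2 CPM, as were Bcl2l1, a survival gene, Cd274 (PD-L1) and Pdcd1lg2 (PD-L2) from low levels, and 3 of the 6 iNKT cell genes tested (median 0.997), where 2.28% of all genes were called higher. Of the 167 Ccr7 UMIs, 158 lay in group 3, the group with Cd3 UMIs, and 1 and 8 lay outside groups 3 and 6. Outside these groups Bcl2l1 had 5 and 10 UMIs, Cd274 4 and 15 and Pdcd1lg2 0 and 1, too few to be called. Cd209a was called lower in all members, at log2 −1.05 (−1.18 to −0.92).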

How the data were processed

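Droplet single-cell RNA-seq was measured in 3 libraries of sorted thymic cells. The deposited files hold whole UMI counts per gene and barcode, made by the authors with Cell Ranger on mm10. The file headers name version 7.0.0 for BM only and BM + Spl and 3.0.2 for C57BL/6, and the study's methods 3.1.0. The submitters' processing notes name Seurat 4.0.2. Totals were 35041153 UMIs over 5986 barcodes in BM only and 43383960 over 5573 in BM + Spl, and 43 barcodes were shared (5 of them members in either library, 0 in both). A cell was kept if it had more than 200 but fewer than 6000 detected genes and less than 10% of its UMIs from mt- genes, which left 4434, 5970 and 5557 in C57BL/6, BM only and BM + Spl, where the methods state 4491, 4201 and 2456 after the same filter. No doublet caller was run. The members and gene lists were chosen with earlier results of these data known.

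UMIs were summed over members and divided by their total for CPM, with no test because each group is 1 library. Members had median depths of 6766 and 7173 UMIs. Grouping used 1000 variable genes, 10 principal components, 15 neighbours and resolution 0.6 (scanpy 1.11.5, Python 3.11.15, numpy 2.4.6, scipy 1.17.1, pandas 2.3.3), and the ratio code was tested on simulated data. Genes were named as the 15 highest by fold over other cells, the 10 called genes with the largest ratio in each direction in all members and in members without Cd3, the leading 5 of each group and the members of 22 lists. Regrouping without the called genes, leaving out groups 3 and 6, the share of group 6 above 2 Siglech UMIs, the class I list and the T cell makeup genes were added after seeing the data. Of 18 genes looked up, 10 had a RefSeq promoter. Vβ segments were assigned from at least 2 UMIs with 80% in 1 segment.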

Additional observations from a re-analysis of the deposited data

Results flagged for a closer look

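In members without Cd3, 59 of 6146 genes were called higher in BM + Spl and 77 lower. Of these, 4 had a called ratio of the opposite sign in the T-cell reference. The number called in both cell classes is not given, so the 4 are a description only. Hsd11b1, a glucocorticoid-activating enzyme, had a log2 ratio of 1.34 against −1.54 in the T-cell reference. Hpgds, a prostaglandin D synthase, had 1.30 against −1.33, Gab3, an adaptor protein, 1.79 against −1.42, and the unnamed gene model Gm12253, at 358 CPM in the BM + Spl members and 1.15 CPM in the T-cell reference there, had 1.04 against −1.03. Hpgds rested on 9 and 47 UMIs in members without Cd3 and was at 3.42 and 1.36 CPM in the T-cell reference. In all members Gab3 was called higher too, at log2 1.11. Hsd11b1 at 0.99, Hpgds at 0.66 and Gm12253 at 0.86 did not pass 2-fold there. With 1 library per group the difference between the cell classes was not tested.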

How the results depend on the processing

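With 1 library per group no comparison could be tested, counting intervals leave out differences between mice, sorts and libraries, and genes under 50 UMIs were not compared. No paired analysis was possible because each group has 1 library and the results come from no test. The log2 ratio of the pDC shares was 1.31 and lay between 1.15 and 1.42 over the alternatives for the Siglech limit, the number of alternative genes, the cell filter, thinning and leaving out members with Cd3. The 176 higher and 106 lower genes became 302 and 222 with a minimum of 20 UMIs, 94 and 52 with 100, and 96 and 70 without the 10% of members with the most UMIs. They became 59 higher in members without Cd3, and 45 and 26 without groups 3 and 6. The T cell share of UMIs, 0.0911% and 0.1803%, became 0.0494% and 0.102% in thinned cells, 0.0447% and 0.0941% without the deepest 10%, and 0.0304% and 0.0685% from Cd3d, Cd3e and Cd3g alone. The 6 groups became 11 at resolution 1, and group 6, at 17.4% and 2.26%, became 25% and 5.03% when grouped without the called genes. Igkv2-109 went to a log2 ratio of −0.082 in members without Cd3, since 77 of its 79 UMIs lay in 1 member with Cd3.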

Other observations

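The labels give no sex of donors or recipients, and Xist and 4 Y-linked genes were read in both libraries. Members without Cd3 had Xist at 0 of 929057 UMIs in BM only, which allows up to 3.23 CPM, and at 7.12 CPM in BM + Spl, where 5 cells held it. Their Y-linked genes stood at 132.4 and 139 CPM, against 107 and 106 CPM in the T-cell reference, which had Xist at 48.6 and 51.5 CPM. In the T-cell reference 16.0% and 19.3% of cells held an Xist UMI, and 4.03% and 3.797% of these also held a Y-linked UMI. Among all BM + Spl members 21 held an Xist UMI, and 13 of them (61.9%) also held a Y-linked UMI, while in the members without Cd3 none of the 5 did. In BM only 1 member held Xist.

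The 1 C57BL/6 cell that met the rule held 41 Siglech, 40 Klk1 and 16 Cox6a2 UMIs among 10158, with 1 Cd3 UMI. Its share of kept cells was 0.0226% (0.000571 to 0.126). That library came from untransplanted mice and was read with another Cell Ranger version, and it was not compared with the transplant libraries.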
